A study of Homo sapiens with 3 samples.

Results

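Cytosolic ribosomal protein genes encode the proteins of the ribosome that works in the cytoplasm, and their transcripts were measured in PANC-1 cells treated with cantharidin or okadaic acid. The members were chosen by symbol, as RPL or RPS followed by a number with an optional A, X or L, together with RPSA and RPLP0, RPLP1 and RPLP2, without pseudogenes. The rule gave 81 of the 19699 genes named on the arrays, 43 of the large subunit, 31 of the small subunit, 3 of the stalk of the large subunit and 4 paralogs, all measured with at least 1 probe. The rule itself uses no measured value, although it was chosen with earlier results of these data known.

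PANC-1 is an established human pancreatic cancer cell line. The study set untreated control cells beside cells given cantharidin (CAN) or okadaic acid (OA) for 24 h, each at 20 µM per the label of its array, and both agents inhibit the protein phosphatase PP2A. The wording of the treatment protocol could apply 20 µM to CAN only, so the OA dose rests on the label. Total RNA of each group was labelled with Cy3 and hybridised to 1 array per group, 3 arrays of 1 design in all. A single array per group leaves every difference without replicates, so none of them could be tested. A control given only the solvent of the agents was not described in the labels.

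A ribosome joins ribosomal RNA to a fixed set of proteins, in which the large subunit forms peptide bonds and the small subunit reads the mRNA. Most of these proteins enter each ribosome as a single copy, and their mRNAs are among the most abundant in dividing cells. Their transcripts typically begin with a C followed by an unbroken run of C and T, the terminal oligopyrimidine (TOP) motif, through which the kinase complex mTORC1 and the RNA-binding protein LARP1 control their translation and stability.

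The letters at the annotated start of each gene were read first, since members that share the TOP motif belong to 1 control class. A promoter entry of RefSeq (GRCh38.p14) matched 64 of the 81 members. On the strand of the gene, a C at the annotated start followed by at least 4 letters that were each C or T was found in 42 of them (65.6%), against 1104 of the 27305 promoters in the table (4.04%). Allowing the run to begin within 5 bases of the annotated start gave 50 members (78.1%) and 21.1% of all promoters. The genes shown are those with the largest and the smallest OA differences for which an entry was at hand, each with 30 bases before the start and 20 from it onward, and capitals mark the run of C and T that begins at the start. The first 4 changed most under OA.
RPL27A (chr11:8682762-8682811, plus strand): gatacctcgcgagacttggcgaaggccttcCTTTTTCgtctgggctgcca
RPS3 (chr11:75399488-75399537, plus strand): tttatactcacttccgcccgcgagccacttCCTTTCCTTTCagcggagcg
RPL22 (chr1:6199576-6199625, minus strand): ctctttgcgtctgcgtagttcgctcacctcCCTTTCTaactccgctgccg
RPSA (chr3:39406690-39406739, plus strand): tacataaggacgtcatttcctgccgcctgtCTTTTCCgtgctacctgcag
RPS19 (chr19:41860225-41860274, plus strand): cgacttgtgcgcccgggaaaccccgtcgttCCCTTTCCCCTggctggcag
RPL39 (chrX:119791611-119791660, minus strand): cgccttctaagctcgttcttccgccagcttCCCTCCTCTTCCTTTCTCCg
RPS29 (chr14:49598691-49598740, minus strand): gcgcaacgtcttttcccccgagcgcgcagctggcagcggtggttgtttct
RPS26 (chr12:56041888-56041937, plus strand): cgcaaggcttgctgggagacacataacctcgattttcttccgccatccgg
RPS4X (chrX:72277229-72277278, minus strand): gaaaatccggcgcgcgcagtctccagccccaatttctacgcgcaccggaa

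The run was 7 letters long in RPL27A, RPL22 and RPSA, 11 in RPS3 and RPS19 and 19 in RPL39. In RPS29, RPS26 and RPS4X no run began at the annotated base, which says only that these letters are not at that position. RPL27A, which was higher under OA, and RPS3, which was lower, both carried the run, as did RPS19 and RPL39, whose signals moved little. Over the 42 members with the run the median log2 difference of OA from control was -0.42, and 13 were at least 1.5-fold lower. Over the 22 members without it the median was -0.51, and 5 were at least 1.5-fold lower. Both shares, 13 of 42 and 5 of 22, stand beside 28.8% of all genes compared that were lower with OA. With CAN the medians were 0.01 with the run and -0.03 without it. The 22 lacked a run only at the annotated base. Some of them had a run that began within 5 bases of it, such as RPL4 with 12 letters and RPL10A with 9. The values were not split by that wider window, so the 22 cannot be read as members without the TOP motif.

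The array reports a processed signal, in intensity units, that grows with the amount of matching transcript. Signals are printed as scanned, and log2 differences were taken after each array was scaled to its own 75th percentile, which was 784 on the control, 713 on the CAN and 936 on the OA array. Where a gene had several probes, the probe with the highest mean log2 signal stands for it. In RNA from a whole culture, fewer cells that express a gene and less RNA per cell cannot be told apart. The epithelial label of the line was checked with 6 epithelial or ductal genes, of which 6 were well above background in control and 5 on each treated array. In control this also held for 2 of 4 acinar markers and for 2 of 3 endocrine, blood, endothelial and fibroblast markers each. The flag alone thus does not set the label apart. The summed control signal was 146484 for the epithelial or ductal genes and 2261 for the endothelial ones, where VWF read 1814. The epithelial or ductal genes did not move as 1 group. The keratin KRT18 read 70664 in control, 127869 with CAN and 193320 with OA, and KRT8 read 51899, 20992 and 53027. The epithelial adhesion protein EPCAM read 1286, 342 and 698, and the signal of E-cadherin (CDH1) was 167 in control and not well above background on either treated array. The part of these marker changes in the results below was not tested.

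The ribosomal protein probes were bright on every array. The median signal of the 81 genes was 201802 in control, 173220 with CAN and 171011 with OA, and 69, 69 and 65 of them reached 100000. No spot of any array was flagged as saturated, and all 81 probes were well above background on all 3 arrays. RPLP2, an acidic protein of the stalk that recruits elongation factors, had the highest signal of the set on each array, at 438598 in control, 402945 with CAN and 417228 with OA. The dimmest members in control were RPL27A and the paralogs RPL3L, RPL39L and RPS27L, followed by RPL22. Members held 18.3% of the summed signal of all named genes in control, 18.3% with CAN and 14.7% with OA.

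**Figure D1:**
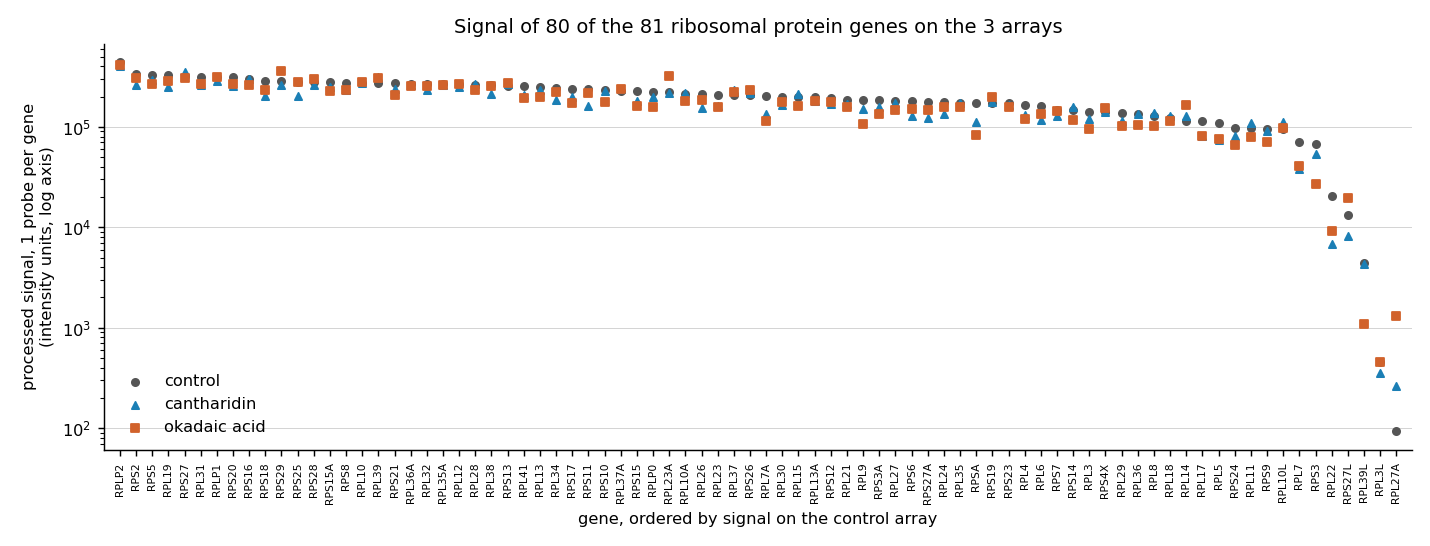
Processed signal (intensity units, log axis) of 80 of the 81 ribosomal protein genes in control, cantharidin and okadaic acid cells, 1 point per array and gene, with genes ordered by the control signal. Most genes lay between 100000 and 438598 on every array, and only RPL22, RPS27L, RPL39L, RPL3L and RPL27A lay below 50000 in control.

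Spots printed several times on 1 array gave the technical error of a bright signal. RPS6, the small-subunit protein phosphorylated by the S6 kinases downstream of mTORC1, had 9 usable spots in control with signals from 172736 to 194792, 8 with CAN from 118454 to 139734 and 10 with OA from 140708 to 159375. The spot ranges did not overlap between control and either agent. After scaling, RPS6 differed from control by -0.36 with CAN and by -0.52 with OA, with a spot SD on the log2 scale of 0.06 in control, 0.09 with CAN and 0.06 with OA. RPL30 of the large subunit had spots from 183771 to 210431 in control, from 153614 to 176000 with CAN and from 155975 to 190617 with OA. Its differences were -0.15 with CAN and -0.44 with OA. Over all replicated probes with signals of at least 50000 the median spot SD was 0.07, 0.07 and 0.06 on the log2 scale for control, CAN and OA, which puts the spot error of a single difference at 0.10 for CAN and 0.09 for OA. This error covers spots on 1 array and not cultures.

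Cantharidin left nearly all ribosomal protein signals within 1.5-fold of control. Of the 81 genes, 1 was at least 1.5-fold higher (RPL27A) and 2 were at least 1.5-fold lower (RPL22 and RPL7), whereas among all 16644 genes compared 27.5% were higher and 34.1% lower by that measure. The share within 1.5-fold was 96.3% of the members and 38.4% of all genes. The median log2 difference was -0.04 over the members and -0.16 over all genes, and the quartiles of the members ran from -0.21 to 0.13. The interquartile range was 0.33 for the members and 1.60 for all genes. The members leaned neither way, with 42 below and 39 above 0, and their median lay between -0.17 without scaling and 0.03 with scaling to detected probes.

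RPL22, a large-subunit protein that cells can replace with its paralog RPL22L1, was the lowest member with CAN. Its signal was 20485 in control, 6755 with CAN and 9125 with OA, a fall of 1.46 on the log2 scale with CAN (2.76-fold). Both treated arrays lay below control and close to each other. RPL7, an early-assembling protein of the large subunit, read 71067 in control, 38218 with CAN and 41124 with OA, and was 1.69-fold lower with CAN. The calls of RPL22 and RPL7 held under all 7 other background corrections, scalings and normalizations tried.

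RPL27A stood apart from all other members. The signal of its only probe was 92.9 in control, 263 with CAN and 1314 with OA, 3.11-fold higher with CAN and 11.8-fold higher with OA. Over the alternatives the log2 difference ran from 1.12 to 2.02 with CAN and from 2.75 to 4.04 with OA. It was the dimmest of the 81 chosen probes in control and with CAN, although RPL27A is a core protein of the large subunit. Whether this probe reports the main RPL27A transcript was not tested.

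The next lowest members with CAN were RPS27L at -0.56, RPSA at -0.50 and RPL5 at -0.44, none of them past 1.5-fold. RPSA, a small-subunit protein that was also described as a laminin receptor, read 173837 in control and 111741 with CAN. Next to RPL27A, the highest were RPL10L at 0.38, RPL39 at 0.33, RPL14 at 0.32 and RPL11 at 0.31, all within 1.5-fold.

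With okadaic acid the set as a whole lay below control. The median log2 difference of the 81 genes was -0.46 (1.38-fold lower), against 0.01 over all 16166 genes compared, and 76 members (93.8%) were below 0, against 49.6% of all genes. The members moved as a narrow group, with quartiles from -0.64 to -0.30 and an interquartile range of 0.34, against 1.43 for all genes. The share past the threshold was near that of all genes, since 24 members (29.6%) were at least 1.5-fold lower, where 28.8% of all genes were lower and 28.1% higher. Only RPL27A was at least 1.5-fold higher. At least 2-fold lower were 7 members (8.64%), a smaller share than the 18.97% of all genes.

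**Figure D2:**
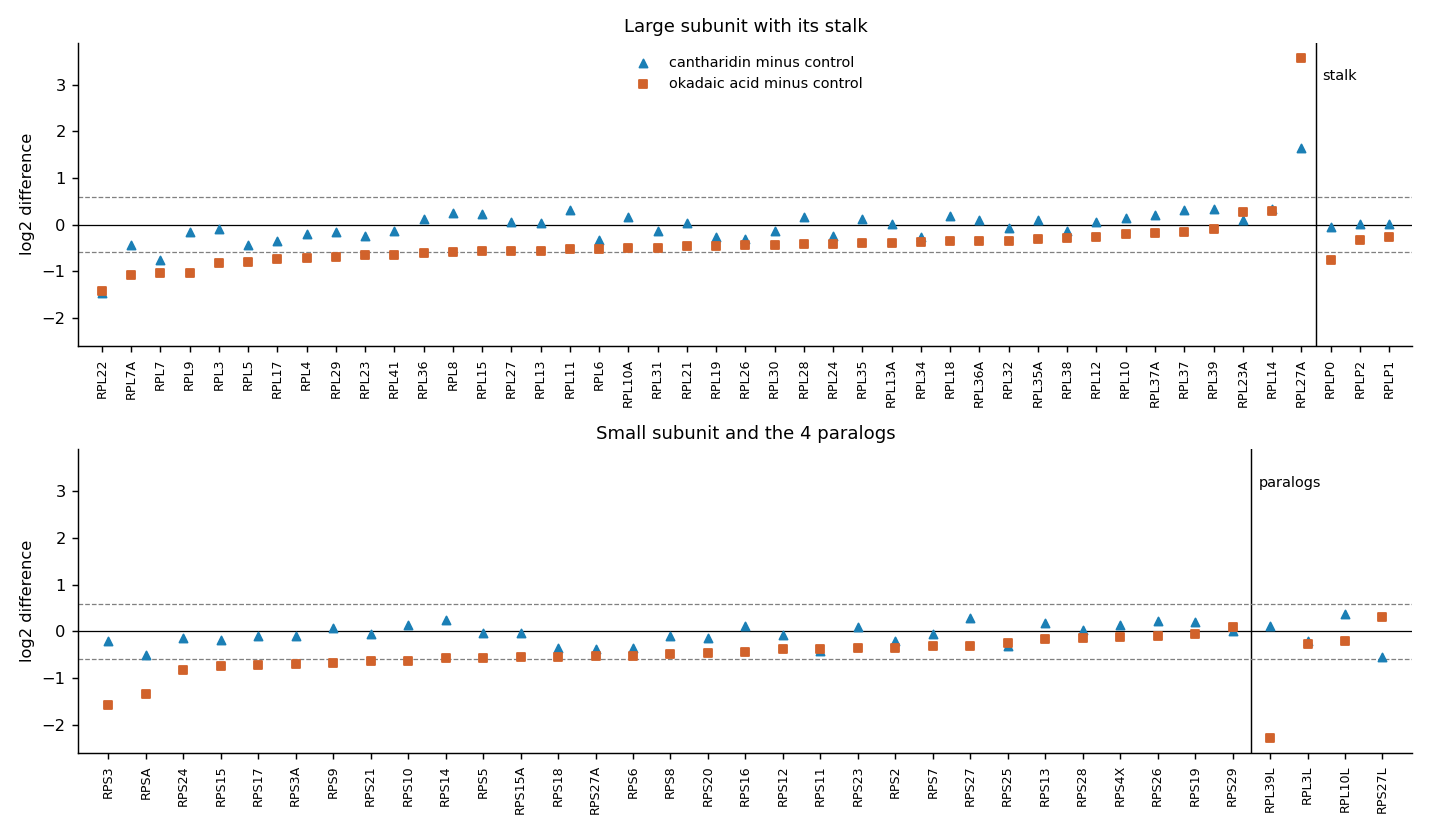
Log2 difference from control of 80 of the 81 ribosomal protein genes with cantharidin (triangles) and okadaic acid (squares), by subunit and ordered by the okadaic acid value, with dashed lines at 1.5-fold. Okadaic acid points lie below 0 for 75 of the 80 genes shown and cantharidin points for 42, and RPL27A, RPL39L and RPS3 lie farthest from 0.

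The size of this shift depended on the normalization, and its sign did not. The median of the members was -0.19 under quantile normalization (2 higher and 10 lower), -0.17 in the deposited normalized table (2 higher and 10 lower), -0.23 under cyclic loess (1 higher and 11 lower), -0.21 without scaling (1 higher and 8 lower) and -0.58 with median scaling (1 higher and 40 lower). The share of members at least 1.5-fold lower was 12.3%, 12.3%, 13.6%, 9.88% and 49.4% in that order, against 29.2%, 30.5%, 27.8%, 22.4% and 32.4% of all genes, so it lay below the share of all genes in the first 4 and above it with median scaling. The call of 8 members held under all of these and under the other scalings, among them RPL39L, RPS3, RPL22, RPSA, RPL7A, RPL7 and RPL9, and 61 of the 81 members were below 0 under each of them. Neither count was made over all genes, so whether members held their calls more often than other genes is not known.

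Among these 8, RPS3 sits where mRNA enters the small subunit and also takes part in DNA repair. Its signal was 67767 in control, 53097 with CAN and 27141 with OA, 2.98-fold lower with OA. The OA array lay well below both others, and the CAN array differed from control by only -0.21. RPSA read 82149 with OA, 2.53-fold lower than control. RPL7A, a large-subunit protein, fell from 201802 in control to 135677 with CAN and 113816 with OA, 2.12-fold lower with OA. RPL9 read 183352, 150243 and 106704 in the same order, 2.05-fold lower with OA. RPL7A and RPL9 read lower on the OA array than on either other array.

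At the other end, RPL14 (0.29), RPL23A (0.27), RPS27L (0.30) and RPS29 (0.09) were the members above 0 with OA besides RPL27A, all within 1.5-fold. RPL23A, which sits by the exit of the peptide tunnel, read 224464 in control, 218157 with CAN and 322639 with OA. Its OA difference was 0.60 under quantile normalization and 0.61 in the deposited table, past 1.5-fold in both.

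The subunits had nearly equal medians. The 43 large-subunit genes had a median of -0.47 with OA, with 13 lower and 1 higher by 1.5-fold, and 0.03 with CAN. The 31 small-subunit genes had a median of -0.48 with OA, with 9 lower, and -0.07 with CAN. In the stalk, RPLP0, which anchors the acidic proteins to the ribosome, was 1.68-fold lower with OA (signals of 224760 in control, 198163 with CAN and 159269 with OA), whereas RPLP1 was at -0.26 and RPLP2 at -0.33. The RPLP0 difference missed 1.5-fold under quantile normalization (-0.50), cyclic loess (-0.51), no scaling (-0.50) and the deposited table (-0.43).

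RPL5 and RPL11 travel with a ribosomal RNA as a particle that can bind MDM2, the ubiquitin ligase of p53. RPL5 read 110082 in control, 73957 with CAN and 75500 with OA, 1.35-fold and 1.74-fold lower, with both treated arrays at nearly the same unscaled signal. The OA value of RPL5 missed 1.5-fold under quantile normalization (-0.56), without scaling (-0.54) and in the deposited table (-0.54). RPL11 read 96542, 108937 and 79656, 1.24-fold higher with CAN and 1.45-fold lower with OA. Neither value of RPL11 passed 1.5-fold against control. RPL13A, known for a second role in silencing inflammatory mRNAs, was at 0.01 with CAN and -0.40 with OA by its brightest probe. RPS27A, made as a fusion with ubiquitin, was at -0.38 with CAN and -0.53 with OA.

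The paralogs differed from their parents in several cases. RPL39L, a near copy of RPL39 known from testis and some tumours, read 4404 in control, 4307 with CAN and 1079 with OA, 4.87-fold lower with OA and the lowest member of that comparison. Its parent RPL39, a small protein lining the peptide tunnel, read 272764, 311612 and 303425, a difference of -0.10 with OA. RPL39L had only 1 probe, far dimmer than that of RPL39. The 34 probes of members with a geometric mean signal under 50000 over the 3 arrays had an OA median of -1.03. The part of probe brightness in the gap between RPL39L and RPL39 was not tested. RPS27L, a gene that p53 can induce, read 13315 in control, 8200 with CAN and 19631 with OA, 1.48-fold lower with CAN and 1.24-fold higher with OA. Its parent RPS27 read 319942, 355220 and 309083, 0.29 with CAN and -0.31 with OA. RPS27L and RPS27 thus lay on opposite sides of control with each agent, although the OA value of RPS27 ranged from -0.43 to 0.08 over the alternatives. RPL10L, an intronless copy of RPL10 known from testis, read 94571, 111719 and 97284, and RPL10 read 274274, 275593 and 283044. Both were within 1.5-fold of control with either agent, and how much RPL10 transcript the RPL10L probe captured was not tested. RPL3L, known from muscle, had signals of only 454, 357 and 450, while RPL3 read 141820, 121212 and 95974 and was 1.76-fold lower with OA (-0.56 on the log2 scale without scaling, short of 1.5-fold).

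Set directly against each other, OA lay below CAN for 74 of the 81 genes (91.4%, against 44.5% of all genes). The median was -0.41, against 0.13 over all 16200 genes compared. At least 1.5-fold lower with OA were 24 members (29.6%, against 22.3% of all genes) and 2 were higher, RPL27A (3.80-fold) and RPS27L (1.82-fold), against 29.5% of all genes. Among the lowest were RPL39L at -2.39, RPS3 at -1.36, RPL9 at -0.89 and RPL11 at -0.85. RPL22 was at 0.04 between the agents, RPS29 at 0.09 and RPS25 at 0.07. Without scaling the median was -0.014 with 2 higher and 3 lower, and it was -0.21 under quantile normalization (2 higher and 7 lower), -0.18 in the deposited table (2 higher and 6 lower), -0.18 under cyclic loess (2 higher and 8 lower) and -0.56 with median scaling (2 higher and 38 lower). Of all genes, 13.9%, 24.2%, 25.4%, 25.4% and 27.2% were lower in that order, against 3.70%, 8.64%, 7.41%, 9.88% and 46.9% of the members. The members below 0 numbered 42, 60, 60, 62 and 78 in the same order. The lower call held under all 7 other background corrections, scalings and normalizations for 3 members, with RPL39L and RPS3 among these. The higher call held for RPL27A and RPS27L. How often the calls of all genes held was not counted.

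The comparisons with control share the control array, so their values are given side by side only. RPL22 and RPL7 were at least 1.5-fold lower with both agents, and RPL27A was higher with both, 2.47% and 1.23% of the members against 21.1% and 17.3% of the 16049 genes compared under both agents. A further 22 members (27.2%, against 6.44% of all genes) were lower with OA and within 1.5-fold with CAN, and 56 (69.1%, against 24.3%) were within 1.5-fold with both. These joint counts were made after the percentile scaling only and were not repeated under the alternatives. Of the 24 members lower with OA, 8 held that call under all 7 other settings, RPL22 and RPL7 among them. The members lower with OA numbered 8 without scaling and 40 with median scaling, so the share of 27.2% depends on the scaling.

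Bright genes that do not encode ribosomal proteins were set beside the members, because the members crowd the top of the signal range. Chosen on the geometric mean signal of the 3 arrays, a choice made after seeing the data, there were 243 other genes at 50000 or above, and 74 members. With CAN, 23.9% of the other bright genes were at least 1.5-fold lower and 25.5% higher, against 0 of these members in either direction, and the medians were 0.05 and -0.01. With OA the medians were -0.05 for the other bright genes and -0.46 for the members, and 25.5% of the other bright genes were at least 1.5-fold lower, against 27.0% of the members. The other bright genes were spread more widely with OA, with an interquartile range of 0.97 against 0.32. Between the agents the medians were -0.20 for the other bright genes and -0.42 for the members. The medians of the other genes depended on how bright genes were chosen. For the 288 other genes with a control signal of at least 50000 they were -0.45 with CAN, -0.43 with OA and -0.003 between the agents, where a choice on the control array itself favours genes that read high on it. The members at that limit, 76 in number, had medians of -0.03, -0.46 and -0.42.

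**Figure D3:**
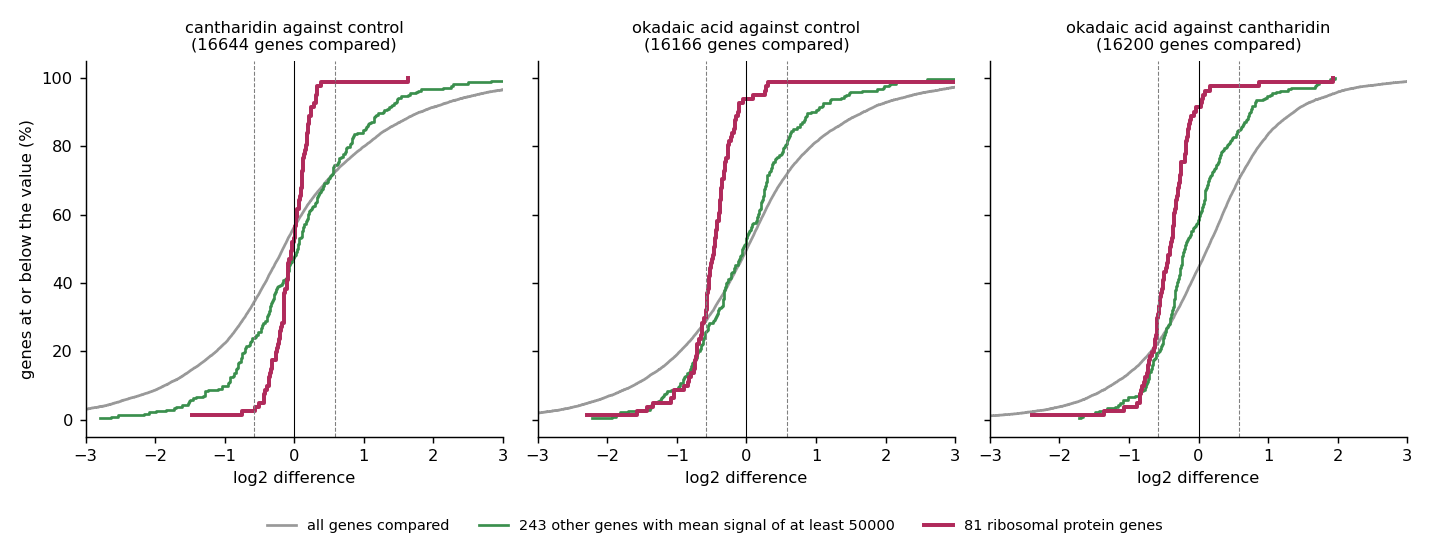
Share of genes (%) at or below each log2 difference for the 3 comparisons, for the ribosomal protein genes, for 243 other genes with a geometric mean signal of at least 50000 over the 3 arrays and for all genes compared, with dashed lines at 1.5-fold and the axis limited to 3 either way. The curve of the ribosomal protein genes is the steepest in each panel, centred near 0 with cantharidin and below 0 in both okadaic acid comparisons.

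The members had 154 probes in all, with 42 genes on 1 probe and 39 on several, and 153 probes were well above background on all arrays. Over all probes the median difference was -0.08 with CAN, with 1 higher and 13 lower, and -0.53 with OA, with 1 higher and 67 lower. That makes 8.44% of the members' probes lower with CAN, against 34.3% of all probes compared, and 43.5% with OA, against 29.8%. The 73 probes that did not stand for their gene had an OA median of -0.78, and 43 of them were at least 1.5-fold lower. The matching share over such probes of all genes was not computed. The difference with OA went with brightness. By the geometric mean signal of the 3 arrays, the median was -1.03 for the 34 probes under 50000, -0.86 for the 26 probes from there to 100000, -0.53 for the 50 probes from 100000 to 200000 and -0.36 for the 44 brighter ones. With CAN the same groups had medians of -0.32, -0.19, -0.05 and 0.02. The part of probe brightness in the size of these differences was not tested.

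**Figure D4:**
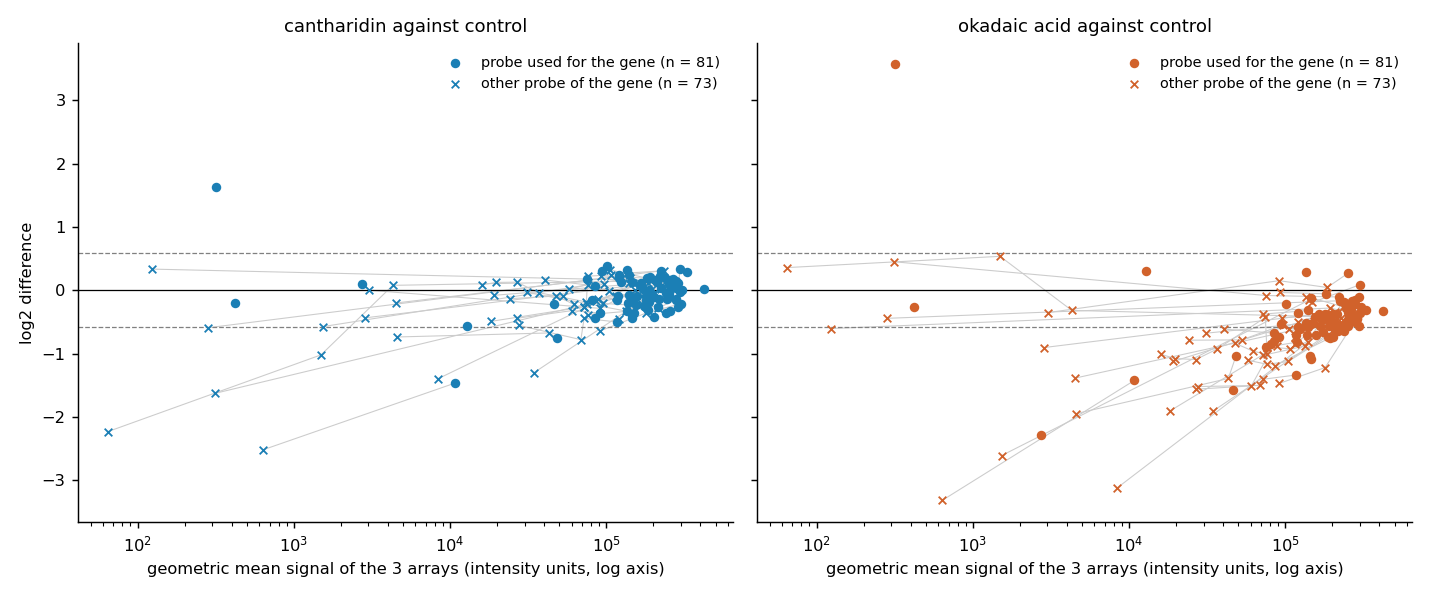
Log2 difference from control of all 154 ribosomal protein probes against their geometric mean signal over the 3 arrays (intensity units, log axis) with cantharidin and okadaic acid, with filled points for the probe used for each gene, crosses for other probes and grey lines joining probes of 1 gene. With okadaic acid many dimmer probes of a gene lie below its brightest probe, down to -3.32 for the second probe of RPL22.

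For 10 of the 39 members with several detected probes, every such probe was at least 1.5-fold lower with OA. They were RPL3, RPL5, RPL7, RPL17, RPL22, RPLP0, RPS3A, RPS9, RPS10 and RPSA. Counts of this kind, here and in the paragraphs on probes that follow, were not made over all genes with several probes. Whether the members differ from other genes in them is thus not known. The 4 probes of RPSA agreed closely, at 2.53-fold to 2.87-fold lower. RPL22 was 2.68-fold lower by its bright probe and 9.96-fold lower by its dim probe with OA, and 2.76-fold and 5.72-fold lower with CAN. RPL5 was lower by 1.74-fold, 2.02-fold and 3.74-fold over its 3 probes. The second RPLP0 probe had 9 or 10 spots on each array, from 108275 to 118670 in control, from 89399 to 94359 with CAN and from 56814 to 62185 with OA, and was 2.28-fold lower with OA. Its OA spots lay wholly below those of the other arrays.

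For 15 genes with several probes, some probes passed 1.5-fold with OA and others did not, namely RPL6, RPL10, RPL10A, RPL13, RPL13A, RPL15, RPL21, RPL23, RPL29, RPL35, RPS2, RPS14, RPS18, RPS23 and RPS29. RPL15 was 1.48-fold lower by its bright probe (control signal of 199377) and 8.71-fold lower by its other probe (23118). RPL13 was 1.47-fold lower by its bright probe and 3.75-fold by the other. RPS2 had 3 probes at 1.29-fold, 2.33-fold and 2.77-fold lower. RPS29 showed the widest gap, 1.06-fold higher by its bright probe and 6.10-fold lower by its dimmest (control signal of 3104). RPL21 had 9 probes from 1.35-fold to 2.13-fold lower, of which its brightest was 1.38-fold lower. In another 14 genes no probe passed 1.5-fold with OA, among them all 4 probes of RPL39.

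With CAN, 7 genes had probes on both sides of the threshold, namely RPL13, RPL15, RPL28, RPL37, RPS2, RPS26 and RPSA, and in each the probes past it were lower. RPL15 was 1.16-fold higher by its bright probe and 2.63-fold lower by the other, and RPL13 was 1.03-fold higher and 2.47-fold lower. RPS26 was 1.16-fold higher by its brightest probe, 1.16-fold lower by the next and 3.09-fold lower by a probe with a control signal of 400.2. No member had probes past 1.5-fold in both directions within either comparison with control.

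Ribosomal proteins and near relatives that the symbol rule leaves out were few. Of these 7 genes, 1 was at least 1.5-fold higher with CAN and 0 lower, and with OA 0 were higher and 3 lower, with medians of -0.02 and -0.54. The counts of these and of the lists below stand beside the shares of all genes compared. Those were 27.5% higher and 34.1% lower with CAN, and 28.1% higher and 28.8% lower with OA. RACK1, a scaffold on the small subunit, read 93364 in control, 134608 with CAN and 76602 with OA, 1.59-fold higher with CAN (0.53 on the log2 scale without scaling, short of 1.5-fold) and at -0.54 with OA. RPL36AL, RPL22L1 and RPL7L1 were the genes lower with OA, by 1.55-fold, 1.74-fold and 1.64-fold, and all 3 missed 1.5-fold without scaling (-0.38, -0.54 and -0.46 on the log2 scale). RPL22L1, which stands in for RPL22, read 33900, 24349 and 23315. FAU, made as a fusion with a ubiquitin-like protein, and RPL26L1 were within 1.5-fold with either agent (-0.10 and 0.05 with OA).

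Other transcripts known for the TOP motif, mostly elongation factors and initiation factor subunits, lay mainly on the same side with OA, with 12 below 0. Of 16 such genes 0 were at least 1.5-fold higher with OA and 10 lower, with a median of -0.72 that stayed below 0 under each alternative (from -0.85 to -0.47). With CAN 2 were higher and 3 lower, with a median of -0.08. EIF3E, a subunit of the initiation factor that binds the small ribosomal subunit, read 19286 in control, 8667 with CAN and 5365 with OA, 2.02-fold and 4.29-fold lower. NAP1L1, a histone chaperone, was 6.05-fold lower with CAN and 2.84-fold lower with OA, and HNRNPA1, a splicing regulator, was 3.62-fold and 2.14-fold lower. PABPC1, the poly(A)-binding protein, and TPT1 were 1.77-fold and 1.56-fold higher with CAN and within 1.5-fold with OA, although TPT1 with CAN was at 0.50 on the log2 scale without scaling. The 6 genes within 1.5-fold with OA thus included both that were higher with CAN.

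Proteins of the mitochondrial ribosome did not share the narrow spread of the chosen cytosolic probes. Their quartiles ran from -1.08 to 0.07 with CAN and from -0.94 to 0.31 with OA. Most of their probes read under 50000. The 34 cytosolic probes with a mean signal under 50000 had quartiles of -0.72 to -0.01 with CAN and -1.55 to -0.48 with OA. The part of brightness in the spread was not tested. Of 77 genes, 8 were higher and 37 lower with CAN (median -0.53), and 12 were higher and 30 lower with OA (median -0.21, but 0.05 without scaling). Against CAN, OA was higher for 25 and lower for 15, with a median of 0.22, where the cytosolic set had -0.41. Of all genes, 29.5% were higher and 22.3% lower in that comparison. MRPS34 read 11819 in control, 965 with CAN and 8285 with OA, 11.1-fold lower with CAN and 1.70-fold lower with OA (-0.51 on the log2 scale without scaling). MRPS27 was 3.39-fold lower with CAN and 12.5-fold lower with OA, while MRPL57 was 3.86-fold and 7.35-fold higher and MRPS16 3.69-fold and 4.15-fold higher by its brightest probe. By the median over its probes MRPS16 was at 0.50 and 0.37 on the log2 scale, short of 1.5-fold with both agents.

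Genes that build ribosomes moved less evenly than the proteins built in. Of 46 ribosome biogenesis factors 9 were higher and 13 lower with CAN (median 0.04), and 19 were higher and 3 lower with OA (median 0.28). NOP58, a core protein of the particles that methylate ribosomal RNA, was 6.96-fold higher with CAN and 7.29-fold with OA, and RRP12, an export factor of the subunits, was 5.76-fold and 5.10-fold higher. BOP1 and WDR12, partners in 1 complex of large-subunit maturation, were 2.85-fold and 3.52-fold lower with CAN and 2.37-fold and 2.62-fold lower with OA. RRS1, which brings the RPL5 and RPL11 particle into the large subunit, was 4.07-fold lower with CAN and at 0.02 with OA. Of 15 genes of RNA polymerase I, which transcribes ribosomal RNA, 6 were higher and 5 lower with CAN and 7 higher and 2 lower with OA. POLR1A, its largest subunit, read 955 in control, 30.5 with CAN and 275 with OA, 28.4-fold and 4.14-fold lower, with a CAN value from -5.38 to -2.90 on the log2 scale over the alternatives. RRN3, the factor that brings the polymerase to its promoter, was 3.44-fold and 2.57-fold higher.

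Of 7 chaperones dedicated to single ribosomal proteins 0 were higher and 4 lower with CAN (median -0.97), and 1 was higher and 4 lower with OA (median -0.61). Over the alternatives the medians ran from -1.11 to -0.51 with CAN and from -0.74 to -0.36 with OA. Among the 4 lower with CAN, HEATR3 was not well above background on that array. GRWD1, the chaperone of RPL3, was 2.10-fold lower with CAN and 1.95-fold lower with OA. PDCD2, which escorts RPS2, was 1.77-fold lower with OA (-0.57 on the log2 scale without scaling, short of 1.5-fold) and within 1.5-fold with CAN, and its relative PDCD2L was 2.01-fold lower with CAN and 1.72-fold higher with OA.

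Initiation factors outside the TOP list leaned upward with CAN, with 15 of 27 genes higher and 4 lower (median 0.62), and with OA 8 were higher and 3 lower (median 0.37). EIF3A, EIF3E, EIF3F, EIF3H and EIF4B were counted among the TOP transcripts instead. Their log2 differences were 0.18, -1.02, -0.47, -0.12 and 0.20 with CAN, and 0.28, -2.10, -1.14, 0.19 and -0.36 with OA. The probe of EIF5, which triggers GTP hydrolysis when the start codon is found, was not well above background in control (signal of 14.7) and read 1823 with CAN, at least 57.3-fold higher. With OA the same probe read 832, at least 19.9-fold higher. These bounds hold on the scaled signal only, since normexp background correction gave log2 differences of 4.29 with CAN and 2.90 with OA. EIF1AX was 2.96-fold and 4.22-fold higher. EIF4E, which binds the mRNA cap, was 4.06-fold higher with CAN by its brightest probe (1.29 on the log2 scale by the median over its probes), and EIF2B3 was 5.80-fold lower with CAN. Host transcripts of small nucleolar RNAs, many of which also carry the TOP motif, were higher with CAN for 6 of 8 genes (median 0.90) and with OA for 4 (median 0.33), and 0 were lower. SNHG12 was 11.1-fold higher with CAN and 6.14-fold with OA, and SNHG1 4.81-fold and 4.36-fold.

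Among 19 genes of mTORC1 and of TOP mRNA control, 7 were higher and 6 lower with CAN (median 0.44) and 9 higher and 6 lower with OA (median 0.24). SESN2, an inhibitor of mTORC1 induced by stress, read 488 in control, 9557 with CAN and 3148 with OA, 21.6-fold and 5.40-fold higher. TSC1, of the complex that switches off RHEB, was 8.96-fold and 4.10-fold higher, and RHEB, the activator of mTORC1, was 4.32-fold and 1.70-fold lower (-0.51 on the log2 scale with OA without scaling). RPTOR, the substrate-binding subunit of mTORC1, was 4.87-fold lower with CAN and 1.54-fold higher with OA (0.50 on the log2 scale with median scaling). LARP4, which stabilises mRNAs through their poly(A) tails, was 2.68-fold and 4.86-fold higher, the latter at 1.45 on the log2 scale after normexp correction.

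**Figure D5:**
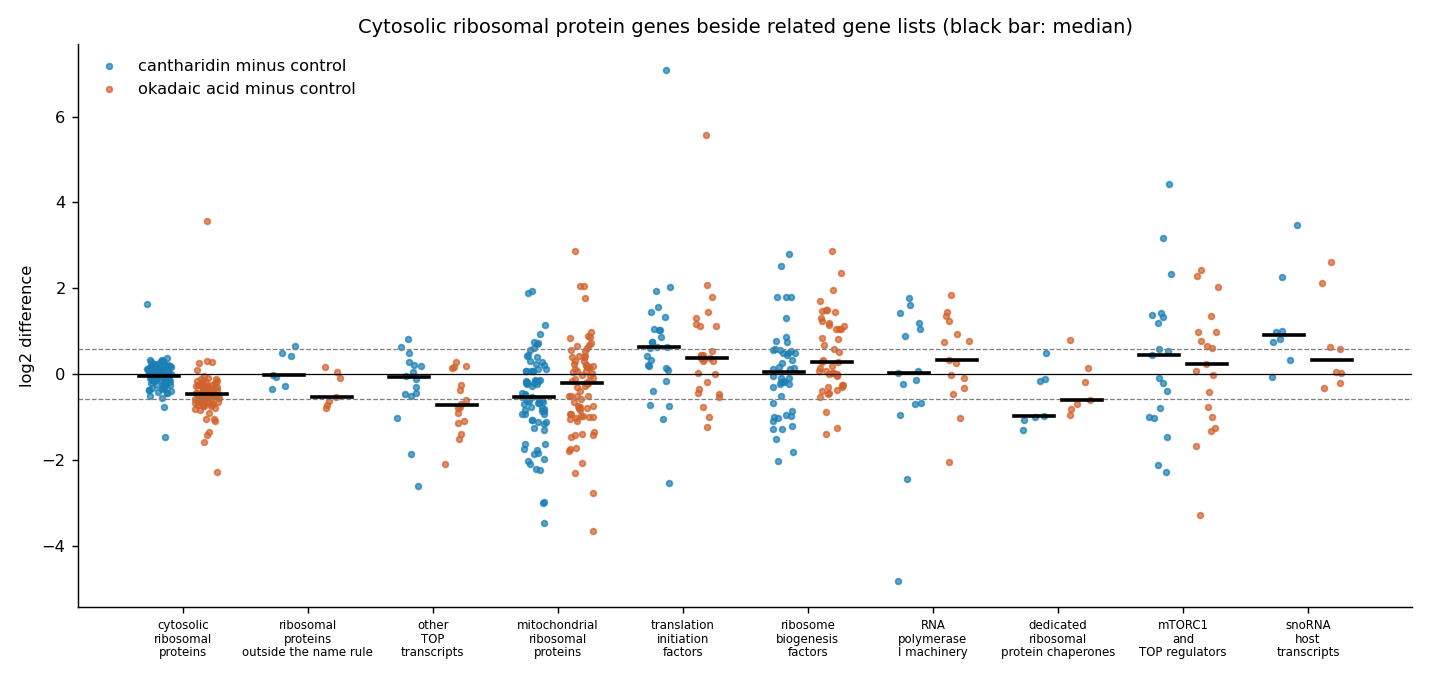
Log2 difference from control with cantharidin and okadaic acid for the cytosolic ribosomal protein genes and 9 related gene lists, 1 point per gene with the median as a black bar and dashed lines at 1.5-fold. The cytosolic ribosomal proteins have a narrower interquartile range than each list of 15 or more genes with either agent, around medians of -0.04 and -0.46.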

How the data were processed

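Gene expression was measured on 3 Agilent 1-colour arrays, 1 each for control, cantharidin and okadaic acid PANC-1 cells, grouped by sample title. The authors deposited the intensity of each spot from Feature Extraction 11.0.1.1, which per the file headers had its background subtracted and was detrended over the array, beside flags for saturated, outlier and well-measured spots. A second deposited file holds log2 values of 30923 probes that the authors had normalized by a method not given in the sources used here. Each of its columns followed its own array (r of at least 0.998), and it was used as an alternative.

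Spots with outlier flags were left out, log2 intensity was averaged over the spots of a probe, and the 75th percentile of each array was subtracted, which left 34041 probes. Accessions were matched without version to RefSeq symbols of GRCh38.p14, which named 25705 probes and 19699 genes. The array annotation used hg19, so only names were matched, and the printed start sequences carry RefSeq coordinates of GRCh38.p14. A gene entered a comparison where either array measured its probe well above background, and the threshold of 1.5-fold follows the study. For a probe too dim on 1 array, "at least" marks the fold over its own signal there or over the dimmest well-measured signal of that array, whichever is higher. With 1 array per group there was no test and no p-value. The arrays shared a slide and a scan, which leaves no batch to test. How precise a value can be is limited by having so few arrays.

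Named genes were the members past 1.5-fold or, where over 10, the 5 most changed, the 5 most changed in each direction per comparison, members with 10 spots or with probes on both sides of the threshold, the paralogs with their parents, the stalk, RPL5, RPL11, RPS6, RPSA, RPS27A and RPL13A, and of each related list the 2 most changed per agent and direction, from which a selection is given. Some genes are counted but not reported here by name. The members, lists and rules were chosen with earlier results of these data known. Sequences were those of members among the 5 most and 5 least changed with okadaic acid. Alternatives were a background correction by normexp (offset 50, on the median spot signal), other scalings, filters, thresholds and choices of probe and member. Cyclic loess normalization and the set without RPL27A were chosen after seeing the data. The counting was tested on simulated data. Software was Python 3.11.15 (numpy 2.4.6, pandas 2.3.3, matplotlib 3.10.9) and limma 3.58.1 in R 4.3.3.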

Additional observations from a re-analysis of the deposited data

How the results depend on the processing

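The median of the ribosomal protein genes kept its sign with OA against control and with OA against CAN under every alternative run, and the deposited table, quantile normalization, cyclic loess (chosen after seeing the data) and no scaling gave the smallest shifts. With CAN against control the median was -0.17 without scaling, where the median of all genes was -0.30. The genes lower were 4 without scaling, 1 at 2-fold, 5 with the median over detected probes and 8 with the dimmest probe, and 13 of the 154 probes were lower. The set with 4 further ribosomal proteins added had 2 genes higher with CAN, and the set without RPL27A (chosen after seeing the data) had 0 higher with CAN, 0 with OA and 1 with OA against CAN. With OA against control the medians were -0.58 with median scaling, -0.19 with quantile normalization, -0.21 without scaling, -0.17 in the deposited table and -0.23 with cyclic loess, with 40, 10, 8, 10 and 11 genes lower, 7 lower at 2-fold and 67 of the 154 probes lower. Quantile normalization and the deposited table each gave 2 genes higher. With OA against CAN the medians were -0.56, -0.21, -0.014, -0.18 and -0.18 in the same order, -0.52 over all probes and -0.54 with the dimmest probe. The genes lower were 38, 7, 3, 6 and 8 in that order, and 3 at 2-fold, with 65 of the 154 probes lower. The genes higher were 1 at 2-fold and without the 4 paralogs and 4 with the dimmest probe, with 5 of the 154 probes higher. Without scaling the median of all genes was 0.26 with OA against control and 0.52 with OA against CAN. The members lay 0.47 and 0.54 below it, a gap that subtracting 1 constant per array cannot change. The gap (members minus all genes) was -0.17 and -0.26 under quantile normalization and -0.15 and -0.24 in the deposited table. It was -0.26 and -0.19 under cyclic loess and -0.42 and -0.50 with normexp. Without scaling the share of calls over all genes that were higher rose from 49.4% to 62.0% with OA and from 56.9% to 77.2% with OA against CAN. By the median over its detected probes EIF2S2 was at -0.37 with CAN, against 0.87 by its brightest probe, and EIF4E at -0.79 with OA, against 0.31. The cause of these changes was not tested. No paired analysis was possible because each group had 1 array. Every chosen probe was well above background on all arrays. The RPL27A probe was still dim in control, at 92.9, where the lowest well-measured signal was 35.0.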
